A study of Mus musculus with 4 samples.

Results

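Tumor T cells with UMIs of proliferation genes were compared with tumor T cells without any. A UMI (unique molecular identifier) is a tag that marks 1 captured RNA molecule, so UMI counts are counts of molecules. The 5 genes that chose the cells, called rule genes here, were Mki67, Top2a, Cdk1, Birc5 and Ccnb1. Of 5570 tumor cells, 157 had 2 or more UMIs summed over the rule genes and are called marker-positive cells, and 4622 had 0 and are called marker-zero cells. The remaining 791 had 1 UMI, are called single-UMI cells, and lie on neither side. In these data the label "cycling" was not borne out for the marker-positive cells as a group, so the groups are named by the rule. The other replication and mitosis genes summed to about the same level on both sides, with much of the mitosis sum from few abundant members. The sparsely detected mitosis genes had a higher sum in the 28 cells with 3 or more rule-gene UMIs.

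Single T cells were profiled for gene expression and receptor sequence in mice with B16F10 melanoma, a transplantable skin tumor line. Per the labels' protocols, mice received 1 cyclophosphamide dose of 250 mg/kg (a drug that depletes dividing lymphocytes), CD4 T cells of the strain RAG1- BW TRP-1 TCR were transferred 1 day later, and tumors were taken on day 11 after transfer. These cells lack the Rag1 recombinase, carry CD45.1 and bear a transgenic receptor for TRP1, a protein of pigment cells. The lymph node library carries the same protocol text, and the labels give the treatment as untreated for both tissues. The titles name transgenic and endogenous cells for tumor but only endogenous cells for lymph node, so comparisons between the tissues also differ in the origin of the cells. Both sides of every tumor comparison come from 1 library with the same tumor, drug and day, and cells of 1 library are not replicates. The number of mice pooled is not given in the sources.

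All 157 marker-positive cells had a receptor call and shared the tumor receptor, which 0 lymph node cells carried. The tumor library held 33147030 UMIs and the lymph node library 29067001 UMIs over 4988 cells, and 36 cell barcodes were found in both libraries. T cell identity genes were abundant on both sides: Cd3e, a signalling chain of the receptor complex, stood at 1831 CPM (UMIs of a gene scaled to the total of its group) in marker-positive and 1842 CPM in marker-zero cells. Markers of B cells summed to 6.17 and 18.5 CPM on the 2 sides, with 3 of 9 members found in marker-positive cells and the defining Cd79a and Ms4a1 at 0. Macrophage markers summed to 14.1 and 14.3 CPM, with 5 of 11 members found in marker-positive cells and C1qa, Adgre1 and Csf1r at 0. Melanoma markers summed to 4.41 and 2.92 CPM, with 3 of 7 members found in marker-positive cells and Tyr, Dct and Tyrp1 at 0. Fibroblast and endothelial markers summed to 7.05 and 6.97 CPM, dendritic cell markers to 14.99 and 12.6 CPM, and neutrophil markers to 1.76 and 0.525 CPM. Markers shared with natural killer cells summed to 56.4 and 56.8 CPM with Ncr1 at 0, and gamma delta T cell markers to 131 and 128 CPM. Without replicates no test between groups was possible. Every interval is a 95% interval that covers counting error only.

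The rule genes belong to the program that a dividing cell switches on between DNA replication and mitosis. Top2a encodes topoisomerase II alpha, which untangles replicated DNA. Mki67 encodes Ki-67, a coat of mitotic chromosomes widely used as a proliferation marker. Cdk1 is the kinase that drives entry into mitosis and Ccnb1 encodes cyclin B1, its partner, while Birc5 encodes survivin, a subunit of the chromosomal passenger complex. In dividing lymphocytes their transcripts accumulate together in the second part of the cycle, through a repressor and activator complex that binds the CHR element (TTTGAA) with CCAAT boxes nearby. Effector T cells in tumors are known to include dividing cells.

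Promoter sequences of 3 rule genes are shown because the transcripts of these genes define the groups, and they differ in the letters named above. All 5 rule genes matched the RefSeq promoter table (build GRCm38.p6). Each sequence runs 5′ to 3′ on the strand of the gene, from the window of 250 bases before the start in that table, less any bases inside the gene's annotated span. Capitals mark TTTGAA and CCAAT, searched on both strands, so that TTCAAA and ATTGG also count. The Top2a promoter is chr11:99024200-99024439 (minus strand, 240 bases), the Mki67 promoter is chr7:135716451-135716629 (minus strand, 179 bases) and the Birc5 promoter is chr11:117848987-117849236 (plus strand, 250 bases).
Top2a: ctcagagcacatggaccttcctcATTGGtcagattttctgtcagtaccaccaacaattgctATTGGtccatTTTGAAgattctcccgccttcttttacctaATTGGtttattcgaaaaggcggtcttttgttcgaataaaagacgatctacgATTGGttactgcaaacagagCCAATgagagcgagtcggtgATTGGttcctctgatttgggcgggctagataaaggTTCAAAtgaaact
Mki67: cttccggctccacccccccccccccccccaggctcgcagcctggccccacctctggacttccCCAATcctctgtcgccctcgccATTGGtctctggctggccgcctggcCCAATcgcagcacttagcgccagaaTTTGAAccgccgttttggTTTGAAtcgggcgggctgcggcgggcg
Birc5: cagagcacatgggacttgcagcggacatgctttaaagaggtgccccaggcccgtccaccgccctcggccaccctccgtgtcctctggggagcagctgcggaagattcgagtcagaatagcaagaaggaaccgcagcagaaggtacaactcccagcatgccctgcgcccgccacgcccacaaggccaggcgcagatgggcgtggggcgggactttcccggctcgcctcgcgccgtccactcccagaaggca
The Top2a window held 2 CHR matches and 6 CCAAT matches, and the Mki67 window held 2 and 3. The Cdk1 window (chr10:69352913-69353162, minus strand) also held 2 CHR and 3 CCAAT matches, and the Ccnb1 window (chr13:100786487-100786736, minus strand) held 0 CHR and 2 CCAAT matches. The Birc5 window held 0 of either. Matches of the 2 motifs did not overlap. Over 32851 RefSeq promoters of 250 bases, 15.99% held TTTGAA and 33.8% held CCAAT on either strand. These are matches of the exact letters only, so 0 matches does not show that a promoter lacks an element. No binding was measured here.

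The marker-positive cells were chosen by their UMI counts of the 5 rule genes, and most of these were of Top2a. The 157 cells held 234 Top2a UMIs, 66.7% of all rule-gene UMIs on that side, and 131 of the cells (83.4%) had at least 1. Mki67 gave 73 UMIs (20.8%) in 48 cells. Cdk1 gave 19 UMIs in 18 cells, Ccnb1 17 UMIs in 15 cells and Birc5 8 UMIs in 5 cells. In CPM, Top2a stood at 206 in marker-positive and 95.6 in single-UMI cells, Mki67 at 64.4 and 34.3, Cdk1 at 16.8 and 7.69, Ccnb1 at 14.99 and 8.81, and Birc5 at 7.05 and 1.88. Marker-zero cells have 0 of each by the rule.

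Most marker-positive cells were just inside the threshold. Exactly 2 rule-gene UMIs were found in 129 of the 157 cells, 3 in 21, 4 in 5 and 5 in 2. In 99 cells (63.1%) all rule-gene UMIs came from 1 gene, which was Top2a in 80 cells and Mki67 in 16. UMIs of 2 rule genes were found in 56 cells (35.7%) and of 3 in 2 cells (1.27%). No marker-positive cell held UMIs of 4 or 5 rule genes.

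The rule genes were found together in few tumor cells. A Top2a UMI was found in 11.3% (7.49 to 16.1%) of the 231 cells with an Mki67 UMI and in 11.5% (10.7 to 12.4%) of the cells without one, although the former were deeper, with a median of 6888 against 5827 UMIs. Cdk1 was found in 1.87% (0.971 to 3.25%) of the 641 Top2a-positive cells and in 0.954% (0.701 to 1.27%) of the others. Ccnb1 was found in 1.87% (0.971 to 3.25%) of the Top2a-positive cells and in 1.01% (0.754 to 1.34%) of the others. Cdk1 was found in 2.16% (0.706 to 4.98%) of the Mki67-positive cells and in 1.01% (0.761 to 1.32%) of the others. In these last 3 pairs the share was higher beside the other gene, with overlapping intervals. Birc5 was found in 3 of the 231 Mki67-positive cells (1.30%, 0.269 to 3.75%) and in 0.225% (0.116 to 0.392%) of the others. Ccnb1 was found in 0 of the 231 Mki67-positive cells, which allows a share of up to 1.58%, and in 1.16% of the others. In the lymph node library 1 pair stood apart: Birc5 was found in 7 of 62 Mki67-positive cells (11.3%, 4.66 to 21.9%) against 0.751% (0.529 to 1.03%) of the others, whose intervals do not overlap.

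**Figure D1:**
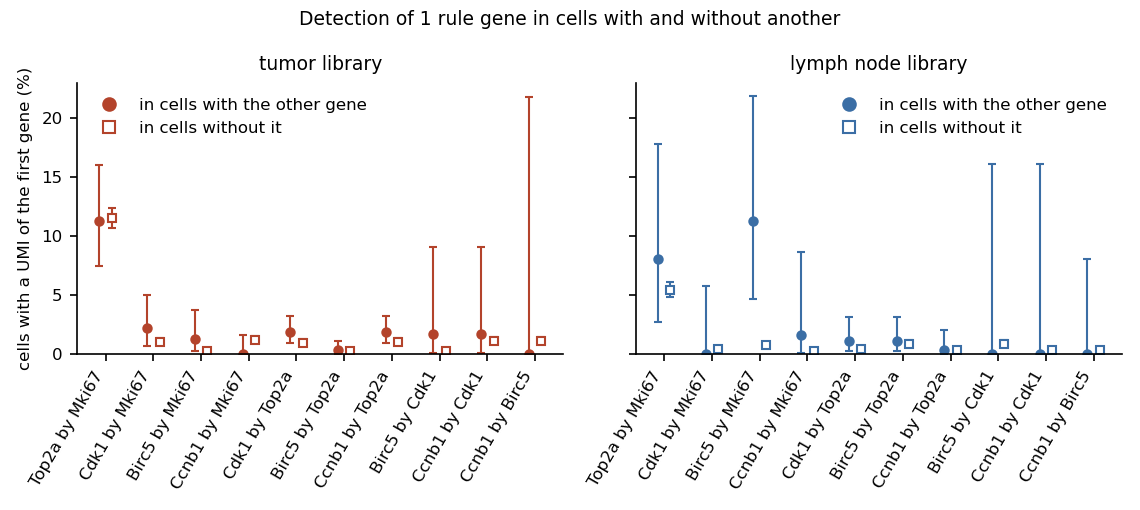
Share of cells (%, with exact 95% intervals) holding a UMI of the first-named rule gene, in cells with (filled circles) and without (open squares) a UMI of the second, for 10 gene pairs in the tumor (red, left) and lymph node (blue, right) libraries. In tumor the Top2a pair is level at 11.3% and 11.5%, and in lymph node Birc5 is at 11.3% in Mki67-positive cells against 0.751% in the rest.

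The label mix of the marker-positive cells followed that of the library, save for the shallow Tcell label. Of 157 marker-positive cells, 80 carried the authors' label Tdp (51.0%, 42.9 to 59.0%), 76 the label Cd4 (48.4%, 40.4 to 56.5%) and 1 the label Tcell (0.637%). Among the 4622 marker-zero cells, 47.9% were Tdp, 43.3% Cd4 and 8.44% (7.65 to 9.28%) Tcell. Labels Treg and Cd8 were given to 0 marker-positive cells, which allows up to 2.32% each, and Treg to 0.325% of marker-zero cells. With UMIs of 2 or more different rule genes, 33 of 58 cells were Tdp (56.9%) and 25 Cd4 (43.1%), and with 3 or more UMIs 13 of 28 were Tdp (46.4%) and 15 Cd4 (53.6%). The sources do not give the rule behind these labels. By UMIs, Cd4 together with Cd8a or Cd8b1 was found in 47.1% of marker-positive and 41.3% of marker-zero cells.

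Depth moved with membership. Marker-positive cells had a median of 6906 UMIs and 2023 genes, and marker-zero cells 5719.5 UMIs and 1783 genes. The share of marker-positive cells went from 0.790% in the shallowest of 4 equal bins of tumor cells by depth, through 2.30% and 3.52%, to 4.66% in the deepest. Mitochondrial genes took a median of 1.90% of counts in marker-positive and 2.06% in marker-zero cells, and ribosomal protein genes 29.2% and 29.1%. No cell of the table had more than 2997 genes, and cells with over 2900 genes made up 1.91% of marker-positive, 2.28% of single-UMI and 0.584% of marker-zero cells. Whether a limit on genes per cell removed further marker-positive cells was not tested.

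Over the whole tumor library the marker-positive share was 2.82% (2.40 to 3.29%). It was 3.101% (2.45 to 3.87%) of Cd4-labelled cells and 2.97% (2.36 to 3.68%) of Tdp-labelled cells, which overlap, and 0.246% (0.00624 to 1.36%) of Tcell-labelled cells. Median depths of these labels were 5533, 6633 and 2040 UMIs. After each cell was thinned to 2000 UMIs, which left out 257 shallower cells, 20 of 5313 cells (0.376%, 0.230 to 0.581%) still had 2 rule-gene UMIs. The thinned share was 0.538% (0.287 to 0.918%) for Cd4, 0.225% (0.0827 to 0.490%) for Tdp and 0.467% (0.0118 to 2.58%) for Tcell. At equal depth the Cd4 share was thus the higher of the 2 main labels, with overlapping intervals.

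The same rule in the lymph node library found 48 of 4988 cells (0.962%, 0.710 to 1.27%), an interval below that of the tumor. At 2000 UMIs the lymph node share was 0.164% (0.0707 to 0.322%), which overlaps the tumor share. These 48 cells carried the labels Cd8 (31 cells), Cd4 (10) and Treg (7). The marker-positive share was 2.18% (0.881 to 4.44%) of lymph node Treg, 1.11% (0.757 to 1.57%) of Cd8 and 0.534% (0.256 to 0.980%) of Cd4 cells. For single genes, a Top2a UMI was found in 11.5% of tumor and 5.47% of lymph node cells, and an Mki67 UMI in 4.15% and 1.24%. Birc5 went the other way, at 0.269% of tumor and 0.882% of lymph node cells. Among lymph node Cd4 cells, with a median of 4763 UMIs, a Top2a UMI was found in 3.95% and an Mki67 UMI in 0.534%. Free RNA in the droplets was not estimated.

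**Figure D2:**
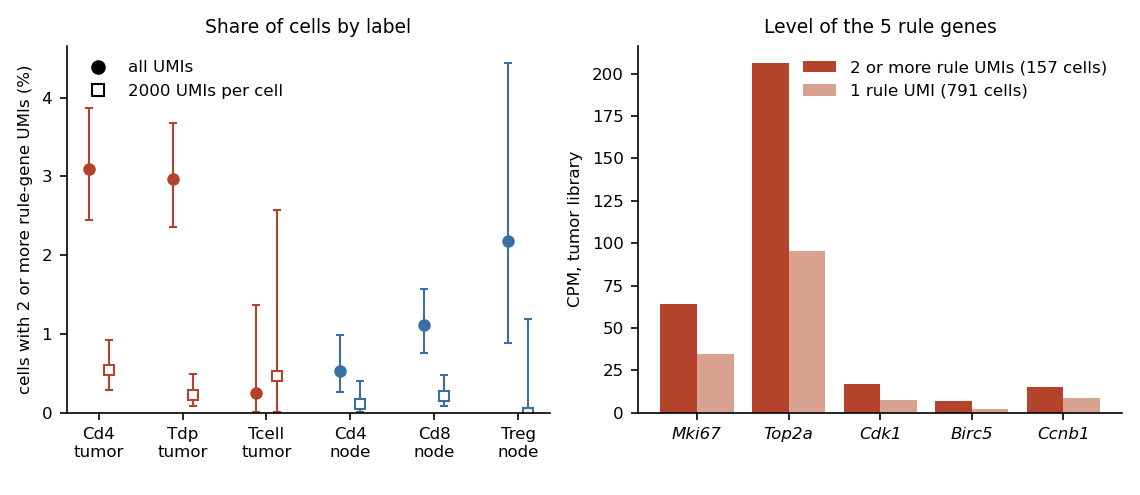
Left, share of cells (%) with 2 or more rule-gene UMIs by label in the tumor (red) and lymph node (blue) libraries, at all UMIs (filled circles) and at 2000 UMIs per cell (open squares), with exact 95% intervals. Right, level (CPM) of each rule gene in the 157 marker-positive (dark) and 791 single-UMI (light) tumor cells, where Top2a is the highest at 206 and 95.6 CPM.

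Genes of DNA replication that the rule did not use were at the same summed level on both sides. The 50 measured members summed to 864 CPM in marker-positive and 884 CPM in marker-zero cells, a ratio of 0.977 (0.916 to 1.04). Of 15 members with at least 20 CPM on a side, 6 had a log2 ratio above 0, 0 passed 2-fold in either direction, and their median log2 ratio was -0.11. Over all 4803 genes counted that median was 0.01, and 2-fold higher were 0.0416% and 2-fold lower 0.0208% of genes. Ratios of single genes are on the scale of log2 (CPM + 1), and their intervals are those of the plain CPM ratio.

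Pcna, the sliding clamp of DNA polymerases, stood at 52.0 CPM (59 UMIs in 41 cells) in marker-positive and 65.0 CPM in marker-zero cells, a log2 ratio of -0.32 (-0.72 to 0.05). Of the MCM helicase, which opens the double helix, Mcm6 stood at 57.3 and 53.2 CPM, Mcm7 at 14.1 and 21.4 CPM, and Mcm2 at 6.17 and 12.3 CPM. Dut, which removes dUTP from the nucleotide pool, stood at 125 and 115 CPM. None of these differed beyond its interval. Gmnn, encoding geminin, a brake on repeated licensing of replication origins, was the highest of the counted members at 38.8 against 26.9 CPM, a log2 ratio of 0.51 (0.06 to 0.97). Uhrf1, which carries DNA methylation onto new strands, stood at 8.82 CPM (10 UMIs in 10 cells) against 3.86 CPM. Mcm10, Cdc6, Clspn, Rad51ap1 and Exo1 had 0 UMIs in the marker-positive cells.

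Genes of mitosis showed a slightly higher sum. The 62 measured members summed to 1038 CPM against 974 CPM, a ratio of 1.07 (1.00 to 1.13). Few members carried much of this sum: in marker-zero cells Jpt1 stood at 369 CPM, Ube2s at 168 CPM and Cks2 at 122 CPM. The sum therefore says little about the sparse members. Of 6 members with at least 20 CPM, 5 had a ratio above 0, 0 passed 2-fold, and the median log2 ratio was 0.12. Cenpa, the histone of the centromere, stood at 47.6 and 39.4 CPM (log2 ratio 0.27, -0.15 to 0.67), and Kpna2, a nuclear import carrier, at 26.5 and 19.0 CPM (0.45, -0.11 to 1.01). Cks2, a CDK-binding subunit, stood at 131 and 122 CPM, and Ube2s, a ubiquitin-conjugating enzyme of the anaphase-promoting complex, at 164 and 168 CPM. The 4 intervals include equality.

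Most other mitosis genes were close to undetected. Bub1, Ttk, Kif20a, Hmmr, Pbk and Nuf2 were among 14 members with 0 UMIs in the marker-positive cells. Ccna2, encoding cyclin A2, had 3 UMIs in 2 cells (2.65 against 0.225 CPM), and Ccnb2, encoding cyclin B2, had 2 UMIs in 1 cell. Prc1, which bundles the microtubules of the midzone, had 12 UMIs in 10 cells (10.6 against 4.01 CPM), with a log2 ratio of 1.21 (0.40 to 2.26). Cdca8, which encodes borealin, had 9 UMIs in 8 cells (7.94 against 3.298 CPM). In the opposite direction, Ckap5, a microtubule polymerase, had 8 UMIs (7.05 against 17.1 CPM).

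The other cell cycle lists differed little. Chromatin condensation and nuclear architecture genes summed to 2345 and 2252 CPM, a ratio of 1.04 (1.00 to 1.08), with 9 of 14 counted members above 0. Much of that sum came from H2afz, the variant histone H2A.Z, at 528 and 510 CPM, and Hmgb1 at 526 and 515 CPM. Hmgb2, a chromatin protein abundant in dividing lymphocytes, stood at 250 and 242 CPM. Hmgn2, a nucleosome-binding protein, stood at 160 and 126 CPM, a log2 ratio of 0.35 (0.13 to 0.57). Replication-dependent histones summed to 22.05 and 30.2 CPM, with 11 of 16 members at 0 UMIs in marker-positive cells. Most transcripts of these histones are known to carry no poly(A) tail. Tubulin and microtubule genes summed to 652 and 612 CPM (ratio 1.06, 0.987 to 1.15), and Tuba1b, an alpha tubulin, stood at 120 and 99.0 CPM. Cyclins, CDKs and E2F entry genes summed to 567 and 546 CPM (ratio 1.04, 0.958 to 1.12). Among them Myc, a growth-driving transcription factor, had a log2 ratio of 0.61 (0.11 to 1.11; 32.6 against 21.1 CPM), while Ccnd2 and Ccnd3, encoding D-type cyclins, were level at 127 and 128 CPM and at 201 and 199 CPM.

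Genes of quiescence and CDK inhibition summed to 3804 CPM in marker-positive and 3986 CPM in marker-zero cells, a ratio of 0.954 (0.926 to 0.984). Btg1, an antiproliferative gene, stood at 1662 and 1853 CPM (log2 ratio -0.16, -0.22 to -0.09). Slfn2, linked to quiescence of mouse T cells, stood at 251 and 297 CPM (-0.24, -0.42 to -0.07). Cdkn2a, which encodes the CDK inhibitor p16 and ARF, was in contrast higher at 48.5 against 31.1 CPM (0.63, 0.22 to 1.04), with 10 of its 55 UMIs in 1 cell. Klf6, another member, was also higher, at 749 against 694 CPM (0.11, 0.01 to 0.21). Cdkn1a, encoding the inhibitor p21, was level at 168 and 172 CPM. Nucleotide synthesis genes summed to 746 and 738 CPM.

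**Figure D3:**
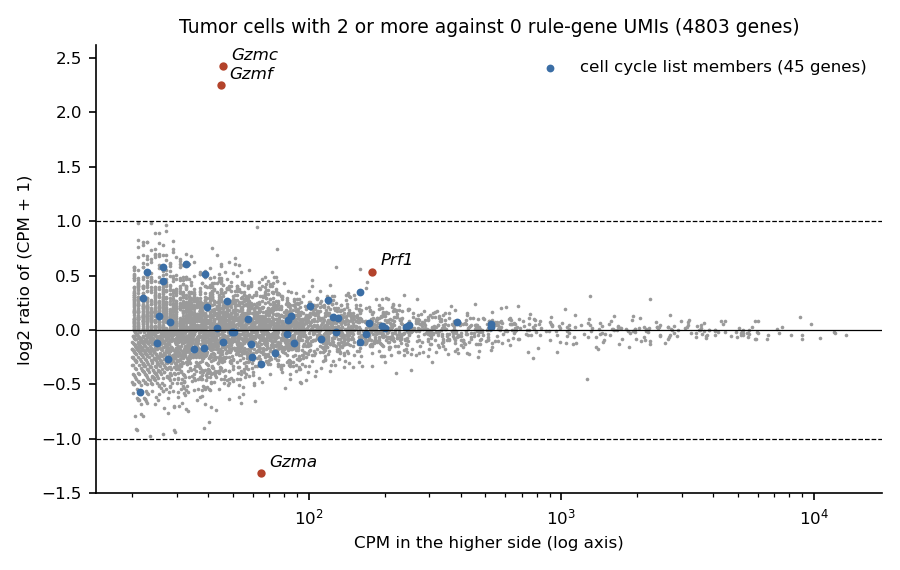
Log2 ratio of (CPM + 1) of marker-positive over marker-zero tumor cells against the CPM of the higher side (log axis) for 4803 genes, with 45 cell cycle list members in blue and 4 effector genes in red. Dashed lines mark 2-fold. The cell cycle members lie between -0.57 (Mcm7) and 0.61 (Myc), and only Gzmc, Gzmf and Gzma lie past the lines.

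The threshold of 2 UMIs was not a step in these lists. The replication list summed to 884 CPM in cells with 0 rule-gene UMIs, 908 with 1, 864 with 2 and 864 with 3 or more. The mitosis list summed to 974, 987, 1023 and 1102 CPM in the same order, and the chromatin list to 2252, 2274, 2306 and 2512 CPM. The median cell held 5, 6, 6 and 5 UMIs of the replication list. The tubulin list was at 612, 632, 604 and 855 CPM and the entry genes at 546, 545, 541 and 677 CPM, so that these lists were higher in the 28 cells with 3 or more. One of those cells held 37 of the 183 tubulin list UMIs, and without it the tubulin sum was 708 CPM. The same cell held 35 of the 185 replication list UMIs, and without it that sum was 727 CPM.

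In the lymph node library these lists were higher in cells with rule-gene UMIs. Replication genes summed to 668, 729, 928 and 1466 CPM at 0, 1, 2 and 3 or more UMIs, mitosis genes to 728, 791, 936 and 1494 CPM, and chromatin genes to 2173, 2458, 2815 and 5119 CPM. Single cells carried much of the last step: 1 Treg-labelled cell held 52 of the 106 replication UMIs of the 9 cells with 3 or more. Without the cell richest in each list, left out after seeing the data, their sums were 856 CPM for replication, 1158 CPM for mitosis and 4654 CPM for chromatin genes. The replication sum is then below that of cells with 2 UMIs, which was 928 CPM, or 818 CPM without its own richest cell. For 2 or more against 0 UMIs the lymph node ratio was 1.56 (1.40 to 1.74) for replication, 1.45 (1.30 to 1.61) for mitosis and 1.52 (1.44 to 1.62) for chromatin genes. Each of these intervals lies above that of the tumor ratio, and without the richest cell the lymph node ratios were 1.37, 1.35 and 1.45. Among 4964 lymph node genes 3.89% were 2-fold higher and 1.39% 2-fold lower, and 6 of the 17 counted replication members were 2-fold higher. The difference between tissues has no test, since each tissue is 1 library, and only 48 lymph node cells with 334120 UMIs enter it. The rule also chose on different genes, as Birc5 stood at 65.8 CPM in marker-positive lymph node cells and 7.05 CPM in marker-positive tumor cells. Treg-labelled cells made up 14.6% of marker-positive and 5.99% of marker-zero lymph node cells. The part of either in these ratios was not tested.

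**Figure D4:**
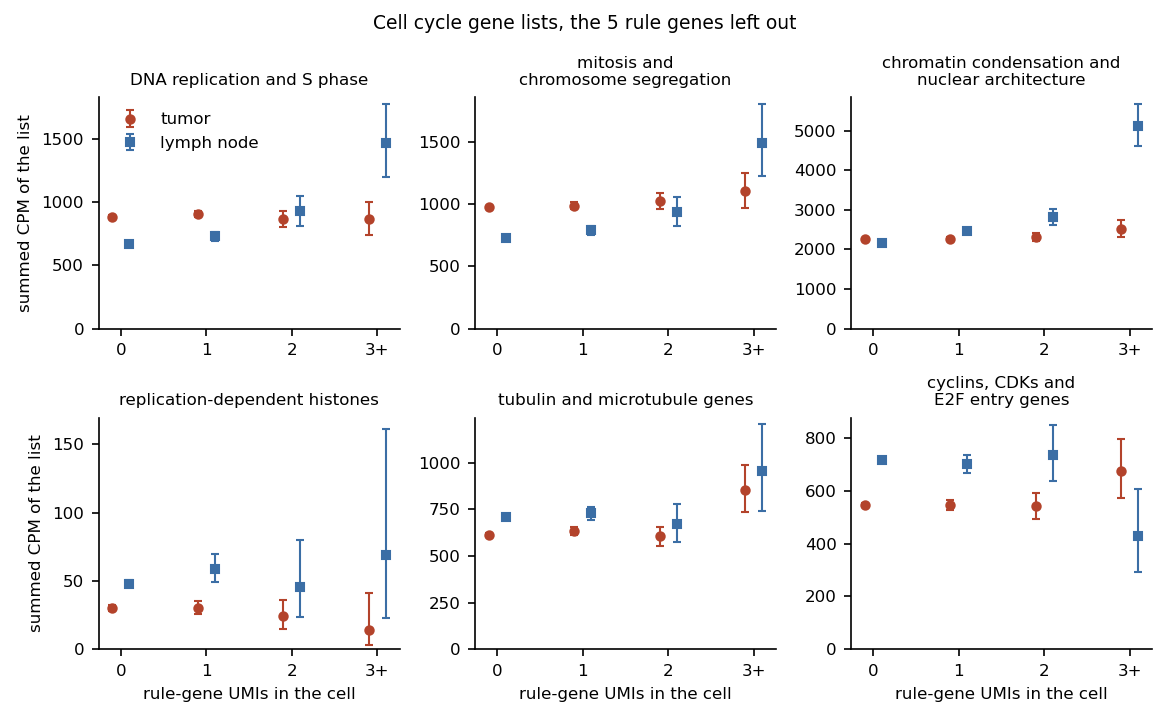
Summed CPM of 6 cell cycle gene lists without the rule genes (vertical axes from 0) in cells with 0, 1, 2 and 3 or more rule-gene UMIs, in tumor (red circles) and lymph node (blue squares), with exact 95% intervals. The tumor replication list stays between 864 and 908 CPM, and in lymph node it goes from 668 to 1466 CPM, the last value being 856 CPM without 1 cell.

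The 28 cells with 3 or more rule-gene UMIs had a higher sum of sparsely detected mitosis genes. Over the 57 mitosis members under 20 CPM in the tumor library, a split chosen after values were seen, the ratio to marker-zero cells was 1.12 (0.982 to 1.27) for all 157 cells. It was 1.25 (1.02 to 1.51) for the 58 cells with 2 or more different rule genes, and 1.11 (0.896 to 1.36) without the cell with the most such UMIs. For the 28 cells with 3 or more rule-gene UMIs it was 1.66 (1.29 to 2.10) on 70 UMIs, of which 13 were in 1 Cd4-labelled cell, and 1.38 (1.05 to 1.79) without that cell. The 36 sparse replication members showed no such difference, at 1.02 (0.895 to 1.16) for all 157 cells and 1.01 (0.733 to 1.35) for the 28, where 1 cell held 17 of 45 UMIs and the ratio without it was 0.650 (0.432 to 0.941). In lymph node the sparse mitosis ratio was 2.96 (2.44 to 3.57) at 2 or more UMIs and 2.60 (2.11 to 3.17) without its top cell. The lymph node sparse replication ratio was 1.59 (1.30 to 1.94), and 1.32 (1.05 to 1.64) without its top cell. At 3 or more UMIs it was 2.22 (1.51 to 3.15), and 0.902 (0.450 to 1.61) without that cell.

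Single genes in those 28 cells rest on few molecules, and the examples below were chosen after their values were seen. At this limit 3.6% of 5021 genes were 2-fold higher and 4.68% 2-fold lower than in marker-zero cells. Of 15 counted replication members 0 were 2-fold higher and 1 lower, of 10 mitosis members 2 and 0, and of 6 tubulin members 3 and 0. Of 14 chromatin members 1 was higher and 0 lower, of 8 entry genes 3 and 0, and of 16 quiescence members 2 and 1. The 2 higher quiescence members were Cdkn2a (27 UMIs, 126 against 31.1 CPM) and Klf2 (75 UMIs, 350 against 172 CPM). Tubg1, the gamma tubulin that nucleates microtubules, had 7 UMIs in 7 cells (32.7 against 7.57 CPM). Ccne1, encoding cyclin E1, had 5 UMIs in 5 cells (23.4 against 4.12 CPM), and Tfdp1, the dimer partner of E2F factors, had 10 UMIs in 10 cells (46.7 against 15.5 CPM). These 3 genes were spread at 1 UMI a cell. Cdca8 had 5 UMIs in 4 cells (23.4 against 3.298 CPM), and Hmgn2 had 53 UMIs in 21 cells (247.5 against 126 CPM). In the other direction, Mcm7 stood at 4.67 against 21.4 CPM and Ckap5 at 4.67 against 17.1 CPM, and Rfc3, a clamp loader subunit, had 0 UMIs. Tuba1b was less even, with 13 of its 44 UMIs in 1 cell. The 2 tumor cells with 5 rule-gene UMIs both had 2 of Birc5. One was Cd4-labelled with 10881 UMIs, of which 12 were Hmgb2 and 63 were chromatin list genes, and the other was Tdp-labelled with 8086 UMIs, 1 Hmgb2 and 32 chromatin list UMIs.

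The rule genes differed in what accompanied them. The 231 tumor cells with Mki67 had a chromatin list ratio of 0.995 (0.962 to 1.03) to marker-zero cells and a mitosis ratio of 1.03 (0.980 to 1.08). The 641 cells with Top2a had 1.01 (0.987 to 1.03) and 1.02 (0.988 to 1.05). Birc5 marked the fewest cells and the highest ratios: its 15 cells had 1.68 (1.53 to 1.84) for chromatin, 1.52 (1.25 to 1.82) for tubulin and 1.38 (1.18 to 1.61) for mitosis genes. The 59 Cdk1 cells had a replication ratio of 1.15 (1.05 to 1.27) and a mitosis ratio of 1.13 (1.03 to 1.24). The 62 Ccnb1 cells had a mitosis ratio of 0.914 (0.824 to 1.01).

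Across all genes the 2 sides of the tumor library were nearly alike. Among the 4803 counted genes 2 were 2-fold higher and 1 was 2-fold lower, and 4693 (97.7%) were within 1.5-fold. For genes of 20 to 50 CPM the median distance from the ratio to the edge of its interval was 0.53 on the log2 scale, and for genes of 500 CPM or more it was 0.07. Genes differ around these medians, so each interval is the guide to what this depth can show.

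The 2 higher genes were granzymes whose UMIs sat in single cells. Gzmc, a granule protease, stood at 45.9 against 7.72 CPM (log2 ratio 2.43), but 29 of its 52 UMIs were in 1 cell, 10 in the next and 6 in another. Gzmf, its neighbour in the granzyme cluster, stood at 45.0 against 8.66 CPM (2.25), with 44 of 51 UMIs in that same cell. The cell was Tdp-labelled with 7976 UMIs, 2 rule-gene UMIs and 31 Gzmb UMIs. Without it the log2 ratio was 1.30 for Gzmc and -0.42 for Gzmf. A Gzmc UMI was found in 5.73% (2.65 to 10.6%) of marker-positive, 2.51% (2.08 to 3.003%) of marker-zero and 0.587% of lymph node Cd4 cells. A marker-zero cell held 44 Gzmf UMIs as well.

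The lower gene, Gzma, encoding granzyme A, was found in few cells. It stood at 25.6 against 65.0 CPM (log2 ratio -1.31, -1.93 to -0.82), and 19 of its 29 UMIs were in 1 of 7 cells. That cell adds to the lower side. A Gzma UMI was found in 4.46% (1.81 to 8.97%) of marker-positive and 5.34% (4.71 to 6.03%) of marker-zero cells, and at 2000 UMIs per cell in 1.91% and 3.77%. The ratio was -1.56 (-2.23 to -1.01) in Tdp-labelled cells. In Cd4-labelled cells it was 1.03 on 5 UMIs (10.2 against 4.48 CPM), with an interval (-0.50 to 2.50) that includes equality.

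The cytotoxic list was level in sum, with 21951 CPM in marker-positive and 21974 CPM in marker-zero cells, a ratio of 0.999 (0.986 to 1.01). Much of both sums was Ccl5, given below. Of 20 counted members 13 were above 0, and the median log2 ratio was 0.14. Prf1, which encodes the pore-forming perforin, was the highest member with more than 100 CPM on both sides. It stood at 178 CPM (202 UMIs in 68 cells, 15 at most in a cell) against 122 CPM, a log2 ratio of 0.54 (0.33 to 0.75). A Prf1 UMI was found in 43.3% of marker-positive and 33.6% of marker-zero cells. Its log2 ratio was 0.52 (0.31 to 0.74) in Tdp-labelled cells, on 186 UMIs. In Cd4-labelled cells it was 0.49 on 16 UMIs, with an interval (-0.32 to 1.23) that includes equality. It was 0.40 against marker-zero cells matched on label and depth, 0.53 at 2000 UMIs per cell and 0.71 for the 28 cells with 3 or more rule-gene UMIs. Gzmb, encoding granzyme B, stood at 2062 and 1909 CPM (0.11), and Nkg7, a granule membrane protein, at 3211 and 3018 CPM (0.09). The chemokines went the other way or were level: Ccl4 stood at 928 and 1264 CPM (-0.45, -0.54 to -0.36), Ccl3 at 197 and 254 CPM (-0.37, -0.57 to -0.18) and Ccl5 at 11940 and 12188 CPM (-0.03). For Ccl4 the ratio was -1.06 in Cd4-labelled and -0.23 in Tdp-labelled cells. For Ccl3 it was -1.79 (-2.33 to -1.33) in Cd4-labelled and 0.14 (-0.08 to 0.35) in Tdp-labelled cells, so the lower level was not shared by the Tdp-labelled cells.

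Exhaustion and checkpoint genes summed to 5140 and 5049.7 CPM (ratio 1.02, 0.991 to 1.05), with 9 of 17 counted members above 0. Havcr2, the inhibitory receptor TIM-3, stood at 168 and 129 CPM (0.38, 0.17 to 0.60), and Tox, a transcription factor of exhausted T cells, at 63.5 and 48.4 CPM. Lag3, another inhibitory receptor, was level at 744 and 718 CPM, and Ctla4 was lower at 395 and 469 CPM (-0.25, -0.39 to -0.11). Members of this list therefore lay on both sides of 0.

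Helper genes and early receptor signalling genes were slightly lower in marker-positive cells. The helper list summed to 1506 and 1625 CPM (ratio 0.927, 0.883 to 0.973), with 5 of 11 counted members above 0. Ccr8, a chemokine receptor, stood at 25.6 and 43.2 CPM (-0.73, -1.34 to -0.23), and the costimulatory receptors Icos and Tnfrsf4 (OX40) at 246 and 283 CPM and at 467 and 530 CPM. The early signalling list summed to 6392 and 6823 CPM (0.937, 0.915 to 0.959), with 4 of 16 counted members above 0. Junb, an AP-1 subunit, stood at 2057 and 2246 CPM (-0.13), while Egr1, an immediate early factor, was among the 4 above 0, at 203 and 165 CPM (0.29). Type 1 helper genes were level, and Ifng, encoding interferon gamma, stood at 346 and 311 CPM. Coreceptor genes summed to a ratio of 0.944 (0.896 to 0.994), with Cd4 at 307 and 346 CPM and Cd8a at 402 and 433 CPM. Regulatory T cell genes had a ratio of 0.916 (0.864 to 0.970). Foxp3, their defining transcription factor, was sparse on both sides, with 0 UMIs in marker-positive and 63 (2.36 CPM) in marker-zero cells. Its interval allows a ratio of up to 1.42. Glycolysis genes had a ratio of 1.04 (1.01 to 1.06) and T cell identity genes 1.02.

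The genes with the highest ratios, Gzmc and Gzmf aside because they were under 50 CPM, were taken by a rule of size, so their ratios describe these cells and their intervals do not allow for the choice. Predicted genes were skipped, among them Gm156 with a log2 ratio of 0.94. Of the rest Serpine2, a secreted inhibitor of serine proteases, was first at 74.96 against 44.5 CPM (log2 ratio 0.74), with 14 of its 85 UMIs in 1 cell. Its ratio was 1.49 in Tdp-labelled and -0.06 in Cd4-labelled cells, and -0.04 at 2000 UMIs per cell. Uggt1, which checks the folding of glycoproteins in the endoplasmic reticulum, stood at 51.1 against 32.0 CPM (0.66), in 29.9% and 16.1% of cells. Gak, a kinase that helps to uncoat clathrin vesicles, stood at 51.1 against 33.2 CPM (0.61), and Hip1, an endocytic adaptor, at 53.8 against 37.0 CPM (0.53). These 3 genes had at most 3 UMIs in any marker-positive cell. Sgk1, a kinase induced by serum and glucocorticoids, stood at 127.9 against 85.5 CPM (0.58) with all UMIs, and its ratio was -0.03 at 2000 UMIs per cell. Ifitm1, an interferon-induced membrane protein, owed 72 of its 181 UMIs to 1 cell. Tceal9 (0.60), Flot1 (0.55), Xdh (0.53), Itga4 (0.52) and Ero1l (0.49) completed the set beside Prf1.

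With the same limit of 50 CPM in the higher side and the same genes skipped, the lowest ratios after Gzma were those of Birc3 and Ndufaf8. Genes under that limit, Ccr8 among them, were left out. Birc3, an inhibitor of apoptosis in the NF-kappa B pathway, stood at 33.5 against 53.9 CPM (log2 ratio -0.67, -1.19 to -0.22). Ndufaf8, an assembly factor of respiratory complex I, stood at 38.8 against 61.4 CPM (-0.65, -1.13 to -0.23). Maf, a transcription factor, stood at 37.0 against 52.9 CPM (-0.50), and Tgfbr2, a receptor subunit for TGF beta, at 70.6 against 97.6 CPM (-0.46, -0.81 to -0.15). Another 9 genes, Ypel5, Pa2g4, Lims1, Abhd17a, Atp5k, Kansl1, Snrnp48, AC149090.1 and Hexim1, had ratios from -0.61 (Ypel5) to -0.46 (Hexim1).

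**Figure D5:**
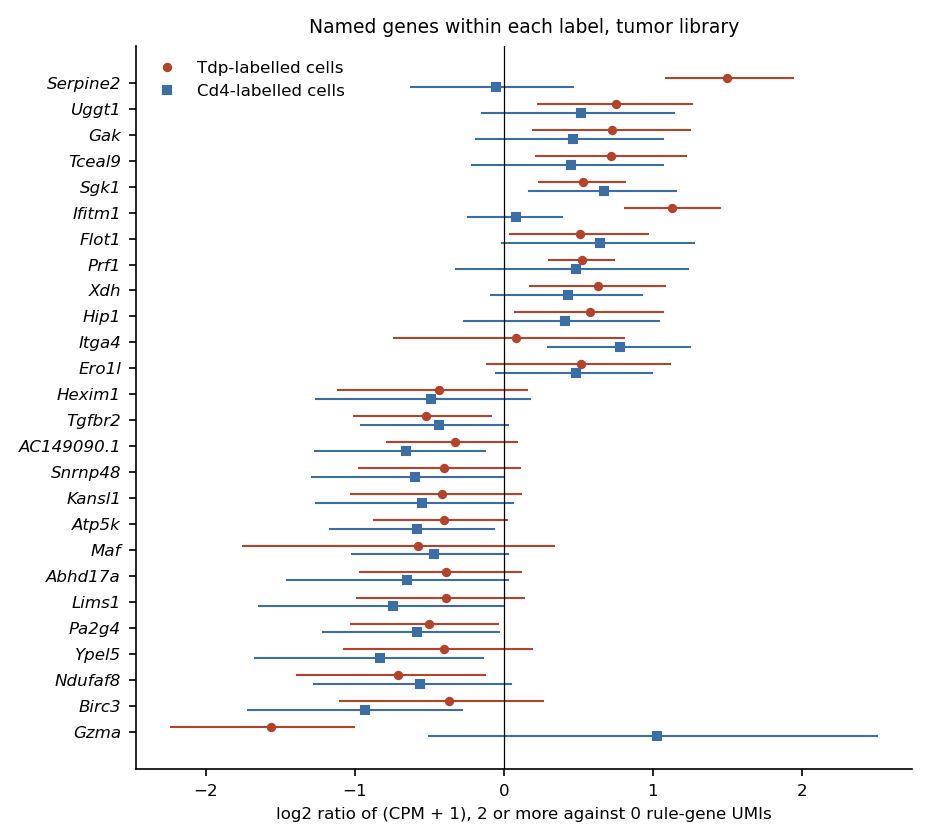
Log2 ratio of (CPM + 1) of marker-positive over marker-zero cells for 26 named genes, computed within Tdp-labelled (red circles) and Cd4-labelled (blue squares) tumor cells, with exact 95% intervals of the CPM ratio. Serpine2 (1.49 and -0.06), Ifitm1 (1.13 and 0.08) and Gzma (-1.56 and 1.03) are the genes whose 2 values lie farthest apart. The Cd4 value of Gzma rests on 5 UMIs.

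Within each label the replication, mitosis and chromatin lists were again near equality, with 1 exception. Among Tdp-labelled cells, where 0.46% of 4779 genes were 2-fold higher and 0.377% 2-fold lower, the ratio was 0.993 (0.909 to 1.08) for replication, 1.06 (0.977 to 1.15) for mitosis and 0.960 (0.908 to 1.01) for chromatin genes. Among Cd4-labelled cells, where 0.63% of 5080 genes were 2-fold higher and 1.02% 2-fold lower, it was 0.941 (0.853 to 1.03) for replication and 1.07 (0.982 to 1.17) for mitosis genes. The chromatin list stood above 1 in the Cd4-labelled cells, at 1.13 (1.07 to 1.19), and its interval does not overlap that of the Tdp-labelled cells. Of its 1363 UMIs in marker-positive Cd4-labelled cells, 70 were in 1 cell and 63 in another. How far the difference between labels rests on these cells was not tested. In both labels 0 counted members of these 3 lists passed 2-fold. The tubulin list was at 1.12 (1.001 to 1.25) in Cd4-labelled and 1.01 (0.909 to 1.11) in Tdp-labelled cells. The effector lists differed between the labels in the same comparison: the cytotoxic ratio was 1.02 (1.01 to 1.03) in Tdp-labelled and 0.922 (0.892 to 0.952) in Cd4-labelled cells. In Cd4-labelled cells the chemokines Ccl4 (454 against 950 CPM), Ccl5 (1803 against 2099 CPM) and Ccl3 (71.3 against 249 CPM) were lower. Of the 16 members counted there, 10 had a log2 ratio above 0, among them Nkg7 at 2554 against 2368 CPM. The lower sum was thus not shared by most members.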

How the data were processed

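The tumor and lymph node RNA libraries (1 each, 10x Genomics 5′ chemistry) were used, and the receptor libraries entered through the annotation only. Per the labels' protocols, 8100 cells were loaded. Cell Ranger 3.1.0 and build mm10 are named in the submitters' processing notes. The authors deposited raw UMI counts in a table of 14721 genes and 10558 cells, checked to be whole numbers. They also deposited an annotation with other values per cell (tissue, label, clonotype and CDR3). The sources do not say how labels and cell filters were made, and no doublet caller was run.

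Counts were summed over the cells of a side and scaled to CPM (scaled to the total), all genes included. Sides were compared by log2 of (CPM + 1). Ratio intervals are exact conditional Poisson intervals, and shares carry exact Clopper-Pearson intervals, all at 95% and for counting error only. A gene was counted at 20 CPM on either side and called at 2-fold. Rule genes and receptor segments were left out. A count of 0 gets the upper Clopper-Pearson bound. With 1 library per tissue there was no test and no p-value. The rule, the 36 gene lists (563 genes, 543 measured) and the comparisons were chosen with earlier results of these data known. Genes were named as the 12 highest ratios (the same 12 when cell cycle lists are left out) and the 15 lowest, among genes with 50 CPM and 30 UMIs in the higher side. The naming skipped Xist, Y-linked, ribosomal protein, mitochondrial and predicted genes and receptor segments, and list members serve as examples. One of the 15 lowest genes is not reported here. Further genes were named after their values were seen.

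Alternatives were TMM scaling (edgeR 4.0.16), library totals counted without ribosomal protein, mitochondrial and receptor genes, CPM averaged over cells, thinning to 2000 UMIs, a minimum of 50 CPM or none, and a pseudocount of 10. Others were marker-zero cells weighted to the label mix or matched on label and UMIs (5 per cell), cutoffs of 3, 1 or 2 different genes, and cells with 2 other-cell marker UMIs or over 3 times the median UMIs left out. Promoters were read from RefSeq (GRCm38.p6). Python 3.11.15, numpy 2.4.6, scipy 1.17.1, pandas 2.3.3 and matplotlib 3.10.9 were used, and the scripts were tested on simulated data.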

Additional observations from a re-analysis of the deposited data

Results flagged for a closer look

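Of the gene lists, 3 had a ratio of marker-positive over marker-zero cells whose whole interval was below 1 in tumor and above 1 in lymph node. The helper list was at 0.927 (0.883 to 0.973) in tumor and 1.24 (1.11 to 1.39) in lymph node. Coreceptor genes were at 0.944 (0.896 to 0.994) and 1.18 (1.07 to 1.29). Regulatory T cell genes were at 0.916 (0.864 to 0.970) and 2.04 (1.83 to 2.27). The difference was not tested, since each tissue is 1 library. The label mix moved with it: Treg-labelled cells made up 14.6% of marker-positive and 5.99% of marker-zero lymph node cells, and 0 of the 157 marker-positive tumor cells. In the same order, Cd8-labelled cells made up 64.6% and 55.2% of the lymph node cells, and Cd4-labelled cells 20.8% and 38.7%. The part of this mix in the ratios was not tested.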

How the results depend on the processing

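No paired analysis was possible because there was 1 library per tissue. The 2 higher and 1 lower genes became, respectively, 9 and 15 with library totals counted without ribosomal protein, mitochondrial and receptor genes, 4 and 4 with CPM averaged over cells, 75 and 114 at 2000 UMIs per cell, 167 and 380 with no minimum, and 8 and 6 against matched cells. They became 181 and 235 at 3 or more rule-gene UMIs, 0 and 0 at 1 or more, 49 and 73 with 2 different rule genes, and 4 and 2 without 173 tumor cells (4 marker-positive) holding other-cell markers. TMM gave 2 lower, and a minimum of 50 CPM 0 higher. Without the cell richest in Gzmc and Gzmf, left out after seeing the data, 1 was higher. The tumor share was 0.376% at 2000 UMIs, 0.503% at 3 or more UMIs, 17.02% at 1 or more and 1.04% with 2 genes, and the lymph node share 0.164%, 0.180%, 7.94% and 0.361%. The Tdp share was 30% of the 20 cells left at 2000 UMIs. Of single genes, Gzma reversed to 0.59 (-0.10 to 1.21, on 21 UMIs) at 3 or more UMIs and Gzmf to -0.42 without the cell above. Gzmc and Gzmf had 0 UMIs in the 28 cells with 3 or more. Of 375 list medians under alternatives, 370 kept within the list's interval and 5 moved, and of the gene ratios 383 kept and 53 moved. Weighting to the label mix, a pseudocount of 10 and leaving out the deepest cells (0 cells over the limit) kept every count within 1.5 times. The highest counts of genes came with settings that sum the fewest UMIs or keep genes of low level. The cause was not tested.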

Other observations

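Replication transcripts were also found in tumor cells without rule-gene UMIs. A limit of 20 replication list UMIs per cell, chosen after seeing the values, was reached by 15 tumor cells. Of these, 12 had 0 rule-gene UMIs, 2 had 1 and 1 had 2 or more, and 7 were Tdp-labelled and 8 Cd4-labelled. They were deep cells, with a median of 11245 UMIs, and held a median of 12 mitosis list UMIs against 5 over the library. Scaled to depth, their median mitosis level was 1150 CPM, beside a sum of 974 CPM over all marker-zero cells. In lymph node 18 cells reached the limit, of which 11 had 0, 4 had 1 and 3 had 2 or more rule-gene UMIs. By share, that was 0.637% of marker-positive and 0.260% of marker-zero tumor cells, and 6.25% and 0.240% in lymph node. One Treg-labelled lymph node cell with 3 rule-gene UMIs held 52 replication list UMIs.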
